A study of Mus musculus with 12 samples.

Results

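Mt1, Mt2, Slc39a14, Slc30a1 and Slc30a10, the liver metallothioneins and a set of zinc and manganese transporters, were followed in mouse liver after a dose of the triterpenoid CDDO-Im, in animals with and without Nrf2. The members were 5 named genes of the 18193 genes measured, taken with every probe set whose annotation named one of them as its only gene. This gave 11 probe sets, and each gene is described by the one with the highest mean over the 12 arrays. Total liver RNA of male mice was biotin-labelled and hybridised to 1-colour Affymetrix arrays, 1 array a sample. The 4 groups of 3 arrays were Nrf2 null mice given CDDO-Im, Nrf2 null mice given vehicle, wild type mice given CDDO-Im and wild type mice given vehicle. CDDO-Im is an activator of the transcription factor Nrf2, and was given by gavage at a labelled dose of 30 uM/kg, with 0 for vehicle, and a labelled time of 6 hours. The labels give no strain, age or construction of the null allele, and do not tie the arrays to animals. The p-values therefore reflect only how far arrays of a group lie apart, which may be technical. Below, a liver stands for 1 array, and n counts arrays. All 6 vehicle titles carry a mark, "(2)", that no CDDO-Im title carries, and whatever it stands for cannot be told apart from the compound.

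Metallothioneins are small cysteine-rich proteins that bind zinc, copper and cadmium in the cytosol. Their genes are switched on by the zinc sensor Mtf1 through metal response elements in their promoters, and in liver also by glucocorticoids and by interleukin 6 during the acute phase response. Slc39a14 (Zip14) brings zinc, iron and manganese into hepatocytes and is known as an interleukin 6 target in liver, Slc30a1 (Znt1) exports zinc from the cell and is a target of Mtf1, and Slc30a10 exports manganese.

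To show the metal response element, whose core is TGCACNC or TGCGCNC, and the antioxidant response element bound by Nrf2, searched as TGACNNNGC or TGAGNNNGC, both strands of the RefSeq promoter windows were read, from 250 bases before the start of each gene to 50 after it, on GRCm38.p6. A window was given for 4 of the 5 members, all but Slc39a14. The windows of Mt1 and Slc30a1 begin before the annotated gene but run into it, since the start used lies inside the gene's span. For Mt1 the window begins at 94178839 and the gene at 94178883, and for Slc30a1 they begin at 191906531 and 191906697. Most of the Mt1 window therefore lies within the gene, and its counts, also a count of 0, say little of the bases before the gene. In all 4 windows the 50 bases after the start were searched too. Of the 4 members with a window, Mt2 held 4 metal response matches, Mt1 and Slc30a10 held 3 each and Slc30a1 held 2. The Mt2 count includes a metal response match 5 to 11 bases after the start, within the gene. All metal response matches of Mt1 and of Slc30a1 also lie within the annotated gene, not before it. Over 32851 mouse windows of 300 bases, 25.7% held at least 1 such match, 7.11% at least 2, 1.97% at least 3 and 0.517% at least 4. The antioxidant pattern matched 2 times in Slc30a1, 1 time in Mt2 (tgactcagc, ending 71 bases before the start) and 0 times in the windows of Mt1 and Slc30a10, beside 27.8% of windows with at least 1 match and 4.68% with at least 2. The Slc30a1 antioxidant match that begins 82 bases before the start used lies within the annotated gene too. No antioxidant match overlapped a metal response match. A match is a description of letters in the window, not evidence of binding. The 250 bases before the start of Mt2, chr8:94172368-94172617, and of Slc30a10, chr1:185454598-185454847, both on the plus strand, are printed for their clusters of metal response matches, which stand in capitals. They carry 3 matches each before the start, and in Slc30a10 the run of 8 capitals holds 2 matches that overlap on opposite strands.
Mt2: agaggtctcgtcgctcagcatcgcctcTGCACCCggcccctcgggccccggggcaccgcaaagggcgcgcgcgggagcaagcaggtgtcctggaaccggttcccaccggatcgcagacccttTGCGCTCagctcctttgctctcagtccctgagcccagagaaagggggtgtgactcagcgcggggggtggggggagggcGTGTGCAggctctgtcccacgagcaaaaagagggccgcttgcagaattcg
Slc30a10: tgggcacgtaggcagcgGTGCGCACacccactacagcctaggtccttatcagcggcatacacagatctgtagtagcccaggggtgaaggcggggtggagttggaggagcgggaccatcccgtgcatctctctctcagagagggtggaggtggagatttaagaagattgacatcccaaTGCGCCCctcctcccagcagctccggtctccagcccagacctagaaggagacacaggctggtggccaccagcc

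Values are deposited log2 intensities, and a difference of 1 is a doubling of intensity. Different probe sets cannot be ranked against each other by level. Differences are the named group minus its control group with the standard error of a linear model over all 12 arrays (limma), and a gene was called where the Benjamini-Hochberg adjusted p over the 18193 genes was under 0.05. Nfe2l2, the gene of Nrf2, averaged 4.89 ± 0.10 in Nrf2 null CDDO-Im, 4.71 ± 0.24 in Nrf2 null vehicle, 8.73 ± 0.39 in wild type CDDO-Im and 8.60 ± 0.09 in wild type vehicle livers (SD, n = 3 each), so every array matched its genotype label. The 5 measured hepatocyte markers had medians of 13.71 to 14.02 on every array.

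Wild type vehicle replicate 3 stood apart from the other arrays. Its mean correlation over genes with its own group was 0.983, the lowest of the 12, and its correlation with the CDDO-Im arrays was 0.989, against 0.975 to 0.982 for the other 5 vehicle arrays. It also carried transcripts of pancreatic acinar cells: the median of the 12 measured acinar markers (of 15 listed) was 3.39 above its mean over all arrays there. The same median was 1.78 on Nrf2 null vehicle replicate 2 and between -0.66 and -0.43 on the other 10 arrays. The summed acinar intensities were 1500 to 1620 in Nrf2 null CDDO-Im, 1380 to 6300 in Nrf2 null vehicle, 1150 to 1320 in wild type CDDO-Im and 1150 to 18600 in wild type vehicle livers. The part of these transcripts in the results was not tested. Calls with CDDO-Im that depend on wild type vehicle replicate 3 are given with and without it. That array was set apart partly by its likeness to the CDDO-Im arrays, so leaving it out favours larger differences with CDDO-Im in wild type. It can also lower the error estimate that both genotypes share. Calls made only without it therefore show a dependence on that array and are not separate evidence of a change.

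Mt1 (Entrez Gene 17748, chromosome 8, 94178883 to 94180327) read 13.67, 13.31 and 12.65 in Nrf2 null CDDO-Im livers, against 13.95, 13.79 and 13.82 in Nrf2 null vehicle livers. In wild type it read 12.70, 12.70 and 12.81 with CDDO-Im, against 13.76, 13.75 and 12.80 with vehicle. All CDDO-Im livers of Nrf2 null mice lay below all their vehicle livers, while in wild type the groups overlapped through vehicle replicate 3, at the level of the CDDO-Im livers. Mt2 (Entrez Gene 17750, chromosome 8, 94172618 to 94173567), whose promoter is printed above, read 13.54, 12.79 and 12.12 in Nrf2 null CDDO-Im livers, against 13.95, 13.76 and 13.94 in Nrf2 null vehicle livers. In wild type Mt2 read 11.63, 12.46 and 11.95 with CDDO-Im, against 13.71, 13.85 and 12.62 with vehicle. The CDDO-Im livers lay below the vehicle livers without overlap in both genotypes, and Nrf2 null CDDO-Im replicate 1, at 13.54, stood closer to the vehicle livers than the other 2 of its group.

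The order of the group means was the same for Mt1 and Mt2, from Nrf2 null vehicle (Mt1 13.85 ± 0.09, Mt2 13.89 ± 0.11) through wild type vehicle (13.44 ± 0.55 and 13.39 ± 0.68) and Nrf2 null CDDO-Im (13.21 ± 0.52 and 12.82 ± 0.71) to wild type CDDO-Im livers (12.74 ± 0.06 and 12.01 ± 0.42; SD, n = 3 each). Wild type vehicle and Nrf2 null CDDO-Im livers, next to each other in this order, did not differ beyond their spread. CDDO-Im minus vehicle in Nrf2 null livers was -1.07 ± 0.36 for Mt2 (95% interval -1.87 to -0.28, adjusted p = 0.115) and -0.64 ± 0.26 for Mt1 (-1.22 to -0.07, adjusted p = 0.195). In wild type the difference was -1.38 ± 0.36 for Mt2 (-2.18 to -0.59, unadjusted p = 0.00266, adjusted p = 0.0852) and -0.70 ± 0.26 for Mt1 (-1.27 to -0.13, adjusted p = 0.243). On the linear scale the wild type Mt2 intensity with CDDO-Im was 0.384 times that with vehicle. Neither metallothionein passed the test in either genotype. The dimmer probe set of Mt1, at 5.57 to 7.62, differed by -0.87 ± 0.39 in Nrf2 null and by -0.63 ± 0.39 in wild type livers. The brighter one is of the Affymetrix kind marked _s_at, whose probes can match more than 1 transcript.

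Without wild type vehicle replicate 3 both metallothioneins passed in wild type: Mt2 fell by 1.77 ± 0.32 (adjusted p = 0.00515) and Mt1 fell by 1.02 ± 0.21 (adjusted p = 0.0108). In Nrf2 null livers, whose arrays were all kept, Mt2 had an adjusted p of 0.0401 in that fit at the same difference of -1.07. Without Nrf2 null CDDO-Im replicate 1 the Mt2 difference in Nrf2 null livers was -1.43 (adjusted p = 0.0405). Without replicate 3 of the same group the differences in Nrf2 null livers were -0.72 for Mt2 (adjusted p = 0.385) and -0.36 for Mt1 (adjusted p = 0.556).

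**Figure D1:**
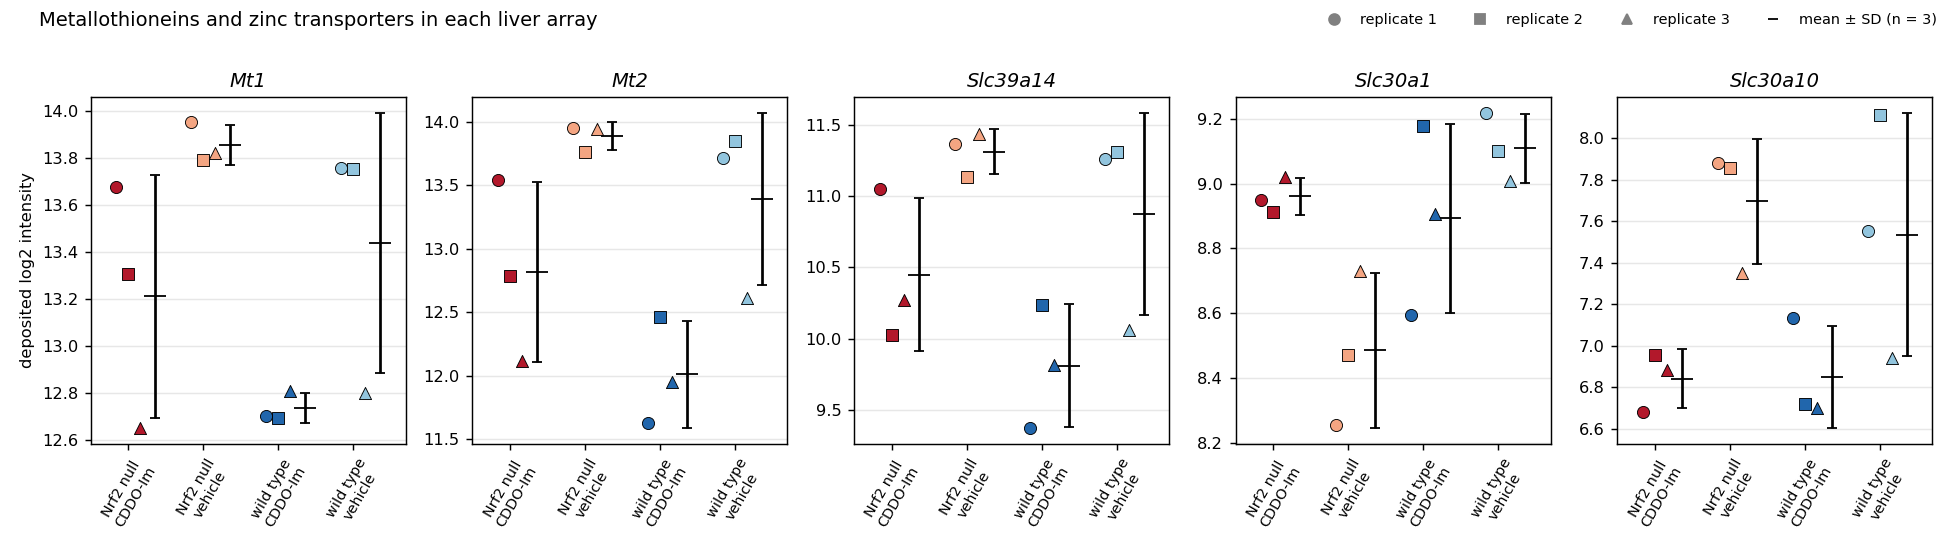
Level of each member (log2 intensity of its brightest probe set, y axis) on all 12 arrays in the 4 groups (x axis), 1 point per array with the group mean ± SD (n = 3). Mt1, Mt2, Slc39a14 and Slc30a10 sit lower in CDDO-Im than in vehicle livers of the same genotype apart from wild type vehicle replicate 3, and Slc30a1 is lowest in Nrf2 null vehicle livers (8.25 to 8.73).

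Between genotypes neither metallothionein was called. Under CDDO-Im, Nrf2 null minus wild type was 0.80 for Mt2 (95% interval 0.01 to 1.60, adjusted p = 0.432) and 0.48 for Mt1 (adjusted p = 0.574), and the ranges overlapped for both. Without Nrf2 null CDDO-Im replicate 3 these differences were 1.15 and 0.75. With vehicle the differences were 0.50 for Mt2 and 0.42 for Mt1 (adjusted p = 0.613 and 0.541), and without wild type vehicle replicate 3 they were 0.11 and 0.10. All 3 Nrf2 null vehicle livers lay above all 3 wild type vehicle livers for Mt1. The interaction, the CDDO-Im effect in Nrf2 null minus that in wild type livers, was 0.06 ± 0.37 for Mt1 (95% interval -0.75 to 0.87) and 0.31 ± 0.52 for Mt2 (-0.82 to 1.43), with adjusted p of 0.993 and 0.958. Both intervals span 0 and reach far to either side of it.

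Slc39a14 (Entrez Gene 213053, chromosome 14, 70303467 to 70351452), the importer, read 11.05, 10.02 and 10.27 in Nrf2 null CDDO-Im livers, against 11.37, 11.14 and 11.44 in Nrf2 null vehicle livers. In wild type it read 9.37, 10.24 and 9.81 with CDDO-Im, against 11.26, 11.31 and 10.06 with vehicle. The groups did not overlap in Nrf2 null livers, and in wild type they overlapped, again through vehicle replicate 3. The difference was -0.87 ± 0.34 in Nrf2 null (95% interval -1.61 to -0.12, adjusted p = 0.178) and -1.07 ± 0.34 in wild type livers (-1.81 to -0.32, adjusted p = 0.159). Without wild type vehicle replicate 3 Slc39a14 fell by 1.48 ± 0.28 in wild type (adjusted p = 0.00596). The group means ran from Nrf2 null vehicle (11.32 ± 0.16) through wild type vehicle (10.88 ± 0.71) and Nrf2 null CDDO-Im (10.45 ± 0.54) to wild type CDDO-Im livers (9.81 ± 0.43; SD, n = 3 each), the order of the metallothioneins. No 2 neighbours in this order differed by more than the larger of their SDs, except Nrf2 null CDDO-Im and wild type CDDO-Im, whose ranges overlapped. The interaction was 0.20 ± 0.48 (95% interval -0.85 to 1.26, adjusted p = 0.973).

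The other probe sets of Slc39a14 gave the same sign with CDDO-Im in both genotypes. The next 2 in brightness differed by -0.79 ± 0.25 and -0.79 ± 0.27 in Nrf2 null livers, and by -0.82 ± 0.25 and -1.04 ± 0.27 in wild type. The dimmest, at 5.47 to 5.98 near the array medians of 5.77 to 5.83, differed by -0.05 ± 0.10 in Nrf2 null and -0.21 ± 0.10 in wild type livers. Under CDDO-Im the dimmer of these 2 read 8.53, 8.05 and 7.93 in Nrf2 null livers, against 6.92, 7.23 and 7.43 in wild type livers, a difference of 0.98 ± 0.27 with an adjusted p of 0.154 over all probe sets. On both of these probe sets all Nrf2 null CDDO-Im livers lay above all wild type CDDO-Im livers. On the brightest and the dimmest these groups overlapped.

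**Figure D2:**
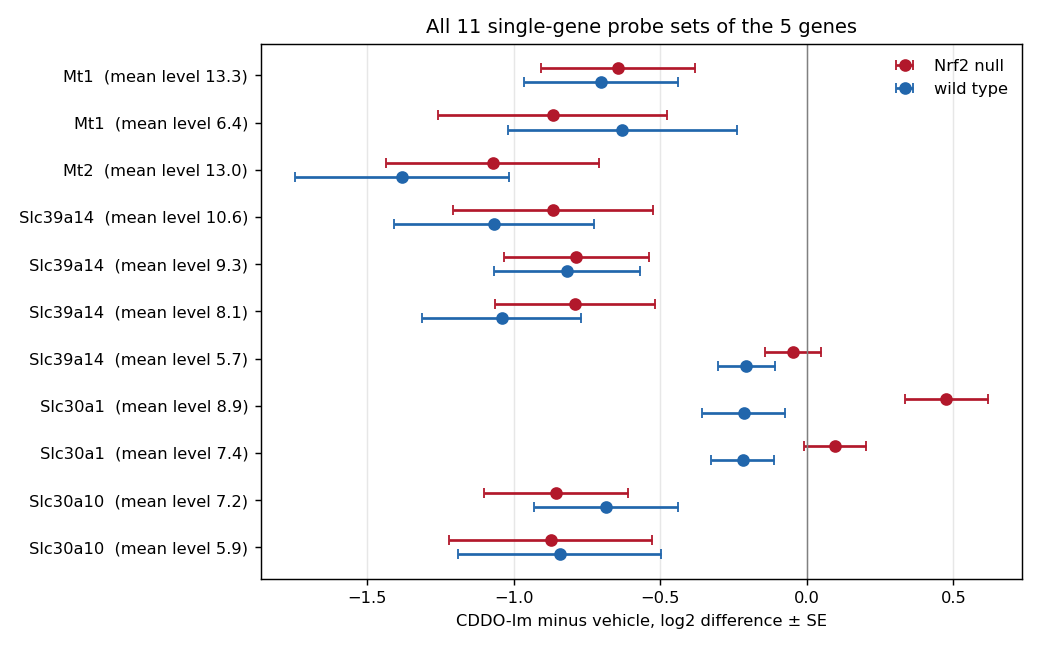
CDDO-Im minus vehicle in log2 intensity, with standard errors, for each of the 11 single-gene probe sets in Nrf2 null and in wild type livers. All probe sets of Mt1, Mt2, Slc39a14 and Slc30a10 lie below 0 in both genotypes, and both probe sets of Slc30a1 lie above 0 in Nrf2 null livers and below 0 in wild type livers.

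Slc30a10 (Entrez Gene 226781, chromosome 1, 185454848 to 185468762), the manganese exporter, read 6.68, 6.96 and 6.89 in Nrf2 null CDDO-Im livers, against 7.88, 7.86 and 7.35 in Nrf2 null vehicle livers. In wild type it read 7.13, 6.72 and 6.70 with CDDO-Im, against 7.55, 8.11 and 6.94 with vehicle. The groups were apart in Nrf2 null livers and overlapped in wild type. The difference in Nrf2 null livers was -0.85 ± 0.25 (95% interval -1.39 to -0.32, unadjusted p = 0.00482, adjusted p = 0.0661). The difference in wild type was -0.69 ± 0.25 (-1.22 to -0.15, adjusted p = 0.22), and without wild type vehicle replicate 2, the highest of its group, it was -0.40 (adjusted p = 0.669). Without wild type vehicle replicate 3 Slc30a10 passed in both, at -0.85 in Nrf2 null (adjusted p = 0.0112) and -0.98 ± 0.20 in wild type livers (adjusted p = 0.00985). The call in Nrf2 null livers was also made without Nrf2 null vehicle replicate 3, which read lowest of its group (-1.03, adjusted p = 0.0487), and without wild type vehicle replicate 2 (-0.85, adjusted p = 0.025). The second probe set, at 5.18 to 7.14, differed by -0.87 ± 0.35 in Nrf2 null and -0.84 ± 0.35 in wild type livers.

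Slc30a10 means ran from Nrf2 null vehicle (7.70 ± 0.30) through wild type vehicle (7.54 ± 0.59) and wild type CDDO-Im (6.85 ± 0.24) to Nrf2 null CDDO-Im livers (6.84 ± 0.14; SD, n = 3 each). The 2 vehicle groups did not differ beyond their spread, nor did the 2 CDDO-Im groups. Nrf2 null minus wild type was -0.0081 under CDDO-Im (adjusted p = 0.998) and 0.16 with vehicle (adjusted p = 0.834), and the value with vehicle was -0.14 without wild type vehicle replicate 3. The interaction was -0.17 ± 0.35 (95% interval -0.93 to 0.59, adjusted p = 0.965).

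Slc30a1 (Entrez Gene 22782, chromosome 1, 191906697 to 191913248), the zinc exporter, had another pattern. It read 8.95, 8.91 and 9.02 in Nrf2 null CDDO-Im livers, against 8.25, 8.47 and 8.73 in Nrf2 null vehicle livers. In wild type it read 8.60, 9.18 and 8.90 with CDDO-Im, against 9.22, 9.10 and 9.01 with vehicle. The Nrf2 null vehicle livers lay below both the Nrf2 null CDDO-Im livers and the wild type vehicle livers without overlap, while the wild type groups overlapped. CDDO-Im minus vehicle was 0.48 ± 0.14 in Nrf2 null livers (95% interval 0.16 to 0.79, adjusted p = 0.0773) and -0.22 ± 0.14 in wild type (-0.53 to 0.10, adjusted p = 0.596, and -0.067 without wild type CDDO-Im replicate 1). Nrf2 null minus wild type was -0.62 ± 0.14 with vehicle (-0.94 to -0.31, unadjusted p = 0.000996, adjusted p = 0.0973) and 0.07 under CDDO-Im (adjusted p = 0.944). The interaction, 0.69 ± 0.20 (0.25 to 1.13), had an unadjusted p of 0.00536 and an adjusted p of 0.386, and was not called.

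The Slc30a1 means ran from wild type vehicle (9.11 ± 0.11) through Nrf2 null CDDO-Im (8.96 ± 0.06) and wild type CDDO-Im (8.89 ± 0.29) to Nrf2 null vehicle livers (8.48 ± 0.24; SD, n = 3 each), and the 2 CDDO-Im groups did not differ beyond their spread. Its second probe set, at 7.12 to 7.71, gave smaller values with the same signs: 0.10 ± 0.11 with CDDO-Im in Nrf2 null livers, -0.22 ± 0.11 in wild type, and -0.22 ± 0.11 for Nrf2 null minus wild type with vehicle. On it the groups overlapped in every comparison. Slc30a1 passed in Nrf2 null livers without Nrf2 null vehicle replicate 3 (0.60, adjusted p = 0.0406) and without wild type CDDO-Im replicate 1 (adjusted p = 0.0478).

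Counted together, 0 of the 5 members were called by limma with all 12 arrays in any of the 5 comparisons, and 12 of the 25 differences had an unadjusted p under 0.05. For CDDO-Im in Nrf2 null livers, all 5 members had such a p, beside 19.4% of all genes, and 5.9% of all genes were called. For CDDO-Im in wild type, 4 members had such a p, where 13.6% of all genes did and 1.82% of all genes were called. For Nrf2 null against wild type, 1 member had such a p under CDDO-Im (11.3% of all genes did, and 1.45% were called) and 1 with vehicle (13.2% did, and 0.39% were called). In the interaction 1 had such a p, beside 7.1% of all genes, with 0.137% called. The ranges were apart with CDDO-Im in Nrf2 null livers for all 5 members, 4 lower and 1 higher, beside 23.1% of all genes, 11.4% lower and 11.6% higher. In wild type 1 of 5 was apart, beside 16.6% of all genes. Between genotypes 0 of 5 were apart under CDDO-Im (16.8% of all genes) and 2 of 5 with vehicle, 1 higher and 1 lower (17.0% of all genes). These counts are a description, since the members were chosen with earlier results of these data known. They do not count separate results either: the comparisons share 4 group means, and Mt1, Mt2 and Slc39a14 correlated at 0.902 to 0.964 over the arrays.

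The median difference of the 5 members with CDDO-Im was -0.85 in Nrf2 null and -0.70 in wild type livers, beside medians over all genes of -0.005 and 0.0058. Without wild type vehicle replicate 3, 2 of 5 members fell in Nrf2 null livers, Mt2 and Slc30a10, where 8.88% of all genes were called and 3.93% were called lower. In the same fit 4 of 5 fell in wild type, all but Slc30a1, where 7.61% of all genes were called and 4.84% were called lower. With array weights, which count less on arrays that lie far from their group, 3 members were called in Nrf2 null livers (10.4% of all genes), 4 in wild type (11.1%) and 1, Slc30a1, between genotypes with vehicle (8.12%). The 4 called in wild type with array weights were the 4 that fell without wild type vehicle replicate 3. That array had the lowest correlation with its own group, so these weighted calls are not separate evidence of a change. The comparisons in Nrf2 null livers share no array with those in wild type, but each shares its error estimate with the other.

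**Figure D3:**
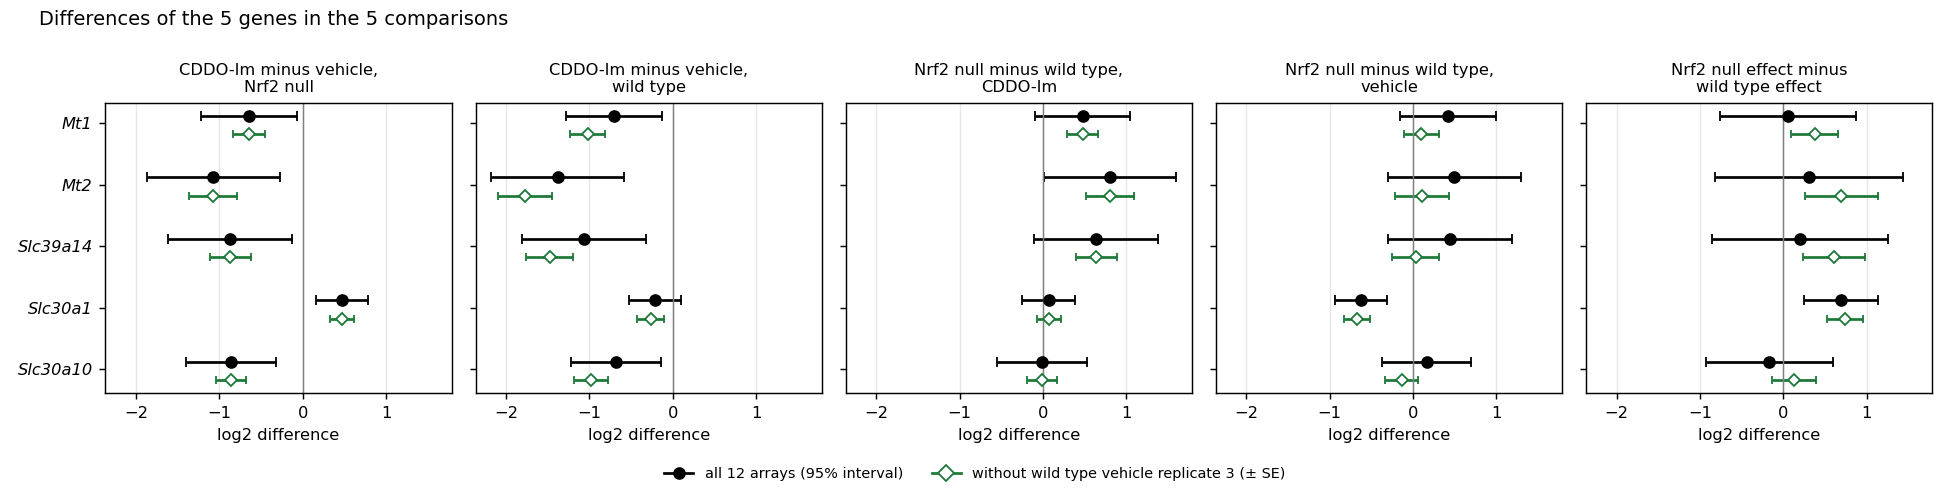
Differences in log2 intensity (x axis) for the 5 members (rows) in each comparison (panels), including the interaction, as filled points with 95% intervals for all 12 arrays and open diamonds with standard errors without wild type vehicle replicate 3. With all arrays the intervals of Mt1, Mt2, Slc39a14 and Slc30a10 lie below 0 with CDDO-Im in both genotypes before adjustment, and those of the interaction span 0 for all but Slc30a1 (0.25 to 1.13).

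The remaining zinc transporters were read from 2 lists. With all arrays 5.9% of all genes were called with CDDO-Im in Nrf2 null livers and 1.82% in wild type, the shares to set beside the counts of these and later lists. Of 13 other Slc39a genes, which bring zinc into the cytosol, 2 fell with CDDO-Im in Nrf2 null livers and 0 were called by limma in wild type, where 5 had an unadjusted p under 0.05. Slc39a7, which releases zinc from the endoplasmic reticulum, read 8.59, 8.27 and 8.47 in Nrf2 null CDDO-Im livers, against 9.65, 9.29 and 9.57 in Nrf2 null vehicle livers (difference -1.06 ± 0.21, adjusted p = 0.0172). Its call was lost without Nrf2 null CDDO-Im replicate 2 or 3 or Nrf2 null vehicle replicate 1, with adjusted p up to 0.0758. Slc39a1, a zinc importer of the cell surface, read 9.28, 9.61 and 9.13, against 10.08, 10.25 and 10.38 in the same groups (-0.89 ± 0.20, adjusted p = 0.0272). Its call was lost without any 1 of the Nrf2 null arrays except CDDO-Im replicate 2, with adjusted p up to 0.116. In wild type their differences were -0.70 (adjusted p = 0.14) for Slc39a7 and -0.65 (adjusted p = 0.149) for Slc39a1.

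With CDDO-Im in wild type, 0 of 8 other Slc30a genes, listed as zinc exporters, were called by limma. Of these 8 genes, 2 had an unadjusted p under 0.05 there. In Nrf2 null livers 1 of the 8 fell with CDDO-Im. It was Slc30a5, which loads zinc into the secretory pathway, with 8.75, 8.77 and 8.79 in Nrf2 null CDDO-Im livers, against 9.71, 10.08 and 10.12 in Nrf2 null vehicle livers (-1.20 ± 0.24, adjusted p = 0.0167). Without Nrf2 null CDDO-Im replicate 2 or 3 or Nrf2 null vehicle replicate 2 it was not called (adjusted p up to 0.0656). In wild type Slc30a5 read 8.62, 8.93 and 8.62 with CDDO-Im, against 9.67, 9.84 and 8.70 with vehicle (-0.68, adjusted p = 0.195), with vehicle replicate 3 at the level of the CDDO-Im livers. Without that array 3 of 13 importers fell in wild type, Slc39a1 (-0.81), Slc39a7 (-1.02) and Slc39a11 (-0.40), and 3 of 8 exporters, Slc30a4 (-0.53), Slc30a5 (-1.04) and Slc30a7 (-0.68). Beside these, 4.84% of all genes were called lower in wild type without that array. In that fit Slc39a11 also fell in Nrf2 null livers (-0.31, adjusted p = 0.0315). The list medians with all arrays were small, -0.18 in Nrf2 null and -0.12 in wild type livers for the importers and -0.05 and -0.10 for the exporters.

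Between genotypes, 1 of the 21 other transporters was called. Slc39a2, a zinc importer, read 4.58, 4.84 and 4.93 in Nrf2 null CDDO-Im livers, against 5.86, 5.69 and 5.95 in wild type CDDO-Im livers, and was lower in Nrf2 null (-1.05 ± 0.16, adjusted p = 0.00553). The call was kept in all 12 fits that left out 1 array (adjusted p up to 0.0324), though the values lie near or below the array medians. With vehicle the Slc39a2 difference was -0.50 (adjusted p = 0.201). Slc39a4, the importer known from intestinal zinc uptake, varied widely within groups. It read 7.72, 8.62 and 7.28 in Nrf2 null CDDO-Im, 6.90, 7.12 and 7.27 in Nrf2 null vehicle, 7.73, 7.50 and 7.08 in wild type CDDO-Im and 7.59, 5.92 and 6.01 in wild type vehicle livers. It was not called with CDDO-Im in Nrf2 null livers (0.78, adjusted p = 0.345) or in wild type (0.93, adjusted p = 0.344).

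Mtf1, the zinc sensor, was not called in any comparison, nor were Mt3 and Mt4, the metallothioneins known from brain and stratified epithelia. Of their 15 differences 1, that of Mtf1 with CDDO-Im in wild type, had an unadjusted p under 0.05. CDDO-Im minus vehicle for Mtf1 was 0.12 ± 0.08 in Nrf2 null (adjusted p = 0.477) and 0.20 ± 0.08 in wild type livers (adjusted p = 0.265). Mt3 differed by -0.11 in Nrf2 null and -0.09 in wild type livers, and Mt4 by -0.11 and -0.03.

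**Figure D4:**
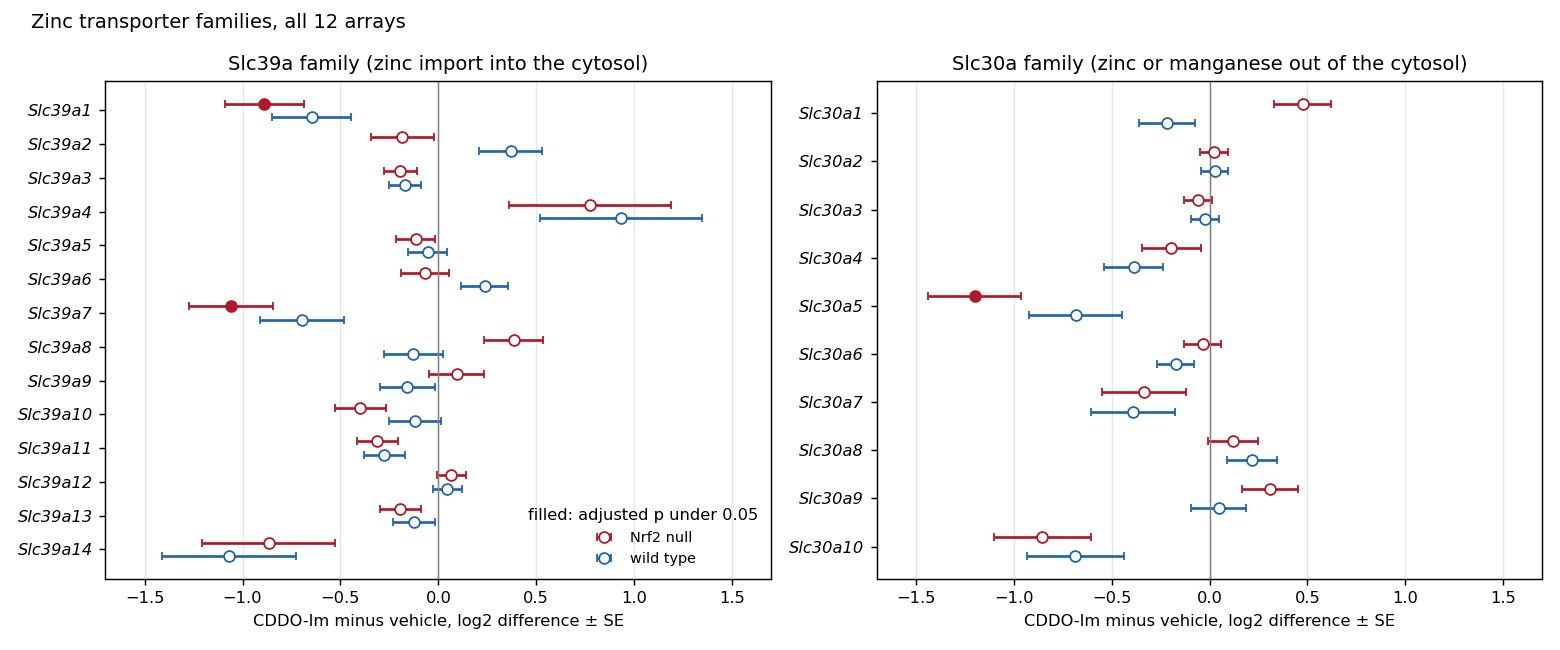
CDDO-Im minus vehicle in log2 intensity with standard errors (x axis), for the Slc39a and Slc30a genes (rows) in Nrf2 null and in wild type livers, with called genes as filled points. Slc39a7, Slc39a1 and Slc30a5 are called in Nrf2 null livers, at -1.06, -0.89 and -1.20, and 0 of the genes drawn are called in wild type.

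Genes of other metals were read beside them. Of 10 copper genes 1 rose with CDDO-Im in Nrf2 null livers, Ccs, the copper chaperone of superoxide dismutase (0.72 ± 0.17, adjusted p = 0.0282), and 0 were called by limma in wild type (3 at an unadjusted p under 0.05), where Ccs differed by 0.27 (adjusted p = 0.547). Its call was lost without any 1 of the 6 Nrf2 null arrays (adjusted p up to 0.116). Without wild type vehicle replicate 3, 2 of the 10 fell in wild type: Atox1, a copper chaperone (-0.68, adjusted p = 0.0105), and Cp, the copper-carrying ferroxidase ceruloplasmin (-0.51, adjusted p = 0.0256). Of 9 manganese and divalent metal genes, Slc39a8 of the importer list among them, Tfrc, the transferrin receptor, rose with CDDO-Im in wild type. Tfrc read 9.67, 10.08 and 9.94 in wild type CDDO-Im livers, against 7.31, 7.58 and 8.08 in wild type vehicle livers (2.24 ± 0.34, adjusted p = 0.00591), and was called in all 12 fits that left out 1 array. Tfrc differed in Nrf2 null livers by 0.21 (adjusted p = 0.813), and the interaction of -2.03 ± 0.48 was not called (adjusted p = 0.231).

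Of the same 9 genes, 3 passed with CDDO-Im in Nrf2 null livers. Slc11a2 (Dmt1), a transporter of iron and manganese, fell by 0.65 ± 0.15 (adjusted p = 0.0314). Tmem165, which brings manganese into the Golgi, fell by 0.75 ± 0.19 (adjusted p = 0.0433). Sod2, the manganese superoxide dismutase of mitochondria, rose by 0.37 ± 0.07 (adjusted p = 0.017). Single arrays decided these calls: Slc11a2 was lost without any 1 of the 6 Nrf2 null arrays, Tmem165 in 10 of 12 fits, called only without wild type vehicle replicate 2 or 3, and Sod2 without Nrf2 null CDDO-Im replicate 2 or 3 or Nrf2 null vehicle replicate 1 or 2, with adjusted p up to 0.102, 0.139 and 0.0706. In wild type the differences were -0.28 for Slc11a2, -0.60 for Tmem165 and 0.20 for Sod2, none of them called with all arrays. Slc11a2 (-0.52, adjusted p = 0.00195) and Tmem165 (-0.84, adjusted p = 0.00515) fell in wild type too without wild type vehicle replicate 3.

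Lists for 3 known inputs to metallothionein genes were read on the same arrays, and their part in the members' values was not tested. Of 18 interleukin 6 and acute phase genes, 10 fell with CDDO-Im in Nrf2 null livers and 6 fell in wild type, with 0 higher in either, and list medians of -1.14 and -1.32. Saa3, a serum amyloid A, fell by 2.84 ± 0.47 in Nrf2 null (adjusted p = 0.0103) and by 2.17 ± 0.47 in wild type livers (adjusted p = 0.041). Lbp, which binds bacterial lipopolysaccharide, fell by 1.14 ± 0.20 (adjusted p = 0.0113) and by 1.27 ± 0.20 (adjusted p = 0.00797). Stat3, which carries the interleukin 6 signal, differed by -0.84 ± 0.26 in Nrf2 null (adjusted p = 0.0821) and -1.002 ± 0.26 in wild type livers (adjusted p = 0.0791). Without wild type vehicle replicate 3 Stat3 passed in Nrf2 null (-0.84, adjusted p = 0.0176) and in wild type livers (-1.30, adjusted p = 0.0025). In that fit 12 of 18 fell in each genotype. Beside these, 3.93% of all genes were called lower in Nrf2 null and 4.84% in wild type livers. Other arrays moved these counts down: without Nrf2 null CDDO-Im replicate 3, limma called 0 of 18 in Nrf2 null livers, and without wild type vehicle replicate 1 it called 0 of 18 in wild type, with 12 at an unadjusted p under 0.05 in each case. The list medians were then -0.98 in Nrf2 null and -1.22 in wild type livers.

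Array by array, the median deviation of the acute phase list from its mean over the 12 arrays was 0.18, -0.70 and -0.63 in Nrf2 null CDDO-Im, 0.77, 0.68 and 0.84 in Nrf2 null vehicle, -1.02, -0.64 and -0.65 in wild type CDDO-Im, and 0.70, 0.82 and -0.17 in wild type vehicle livers. Nrf2 null CDDO-Im replicate 1, the highest of its group for Mt1, Mt2 and Slc39a14, was also the highest for this list, and wild type vehicle replicate 3, the lowest of its group for all 3, was also the lowest. The Nrf2 target list had median deviations of -0.44, -0.37 and -0.28 in Nrf2 null CDDO-Im, -0.47, -0.41 and -0.39 in Nrf2 null vehicle, 1.46, 1.37 and 1.29 in wild type CDDO-Im, and -0.38, -0.32 and -0.34 in wild type vehicle livers. Wild type vehicle replicate 3 therefore lay with the vehicle livers on Nrf2 targets. Of these 10 targets, Gclc and Me1 rose and Srxn1 fell with CDDO-Im in Nrf2 null livers (list median 0.07) and 8 rose in wild type (median 1.74). In Nrf2 null livers the call of Gclc was lost without CDDO-Im replicate 2 or 3 or vehicle replicate 1 or 2 (adjusted p up to 0.079), and that of Me1 without CDDO-Im replicate 3 or vehicle replicate 1 (adjusted p up to 0.07). Nqo1, a quinone reductase and Nrf2 target, averaged 4.88 in Nrf2 null CDDO-Im, 4.84 in Nrf2 null vehicle, 7.20 in wild type CDDO-Im and 5.12 in wild type vehicle livers, and its interaction was -2.03 (adjusted p = 5.04e-06).

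**Figure D5:**
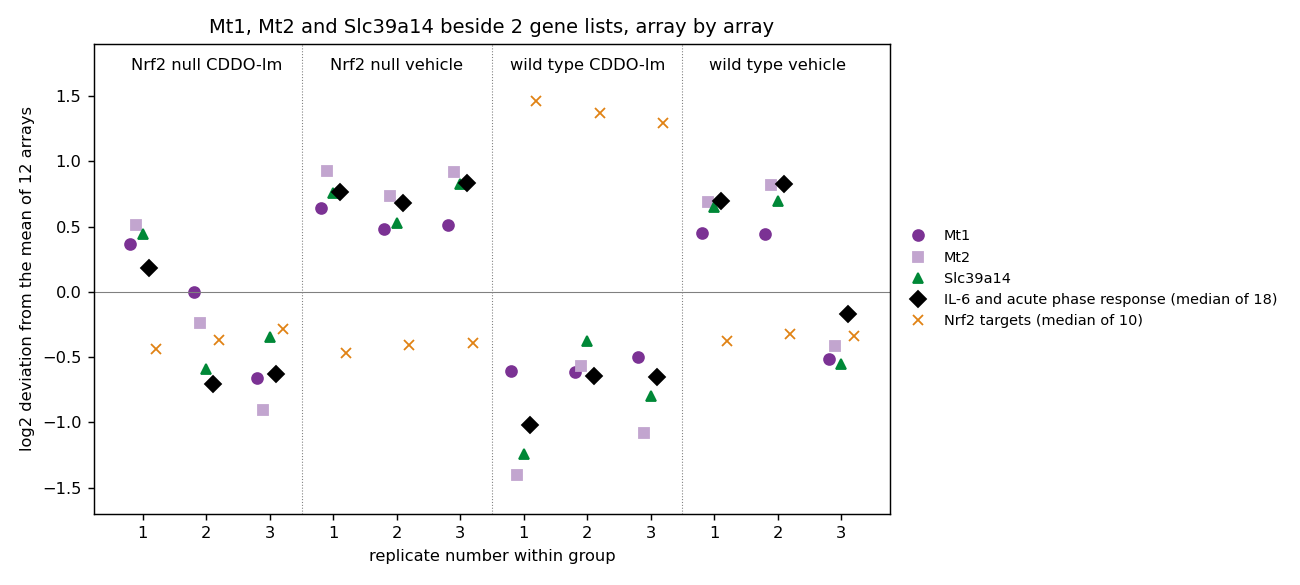
Deviation in log2 intensity from the mean of 12 arrays (y axis) for Mt1, Mt2 and Slc39a14 and for the medians of the acute phase list (18 genes) and the Nrf2 target list (10 genes), array by array in the 4 groups. Wild type vehicle replicate 3 lies below the other vehicle arrays for the 3 genes and the acute phase list (-0.17) but not for the Nrf2 targets (-0.34).

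Of 12 glucocorticoid genes, 2 rose with CDDO-Im in Nrf2 null livers and 0 were called by limma in wild type, where 2 had an unadjusted p under 0.05. The list medians were 0.26 in Nrf2 null and 0.03 in wild type livers. The 2 called were Hsd11b1 and Nr3c1, while the response genes of the list, such as Fkbp5, Tsc22d3 and Tat, were not called. With array weights Dusp1, Per1 and Tsc22d3 were also called higher in Nrf2 null livers. Hsd11b1, the enzyme that regenerates active glucocorticoid, rose by 1.01 ± 0.12 in Nrf2 null livers (adjusted p = 0.00405), was called in all 12 fits that left out 1 array, and differed by 0.50 ± 0.12 in wild type (adjusted p = 0.0531, and 0.0151 without wild type vehicle replicate 3). With vehicle Hsd11b1 was lower in Nrf2 null than in wild type livers (-0.63 ± 0.12, adjusted p = 0.0449), a call kept in 3 of 12 such fits (adjusted p up to 0.176). Nr3c1, the glucocorticoid receptor, rose by 0.58 ± 0.14 in Nrf2 null livers (adjusted p = 0.0329), a call lost without Nrf2 null CDDO-Im replicate 2 or 3 or Nrf2 null vehicle replicate 1 or 2 (adjusted p up to 0.135), and differed by -0.11 in wild type (adjusted p = 0.839).

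Markers of other liver cells were read as summed intensities. The 6 Kupffer cell markers summed to 2550 to 2630 in Nrf2 null CDDO-Im, 1330 to 2570 in Nrf2 null vehicle, 2680 to 4370 in wild type CDDO-Im and 1810 to 4000 in wild type vehicle livers. The 7 measured neutrophil markers (of 8) summed to 736 to 784, 828 to 1000, 704 to 796 and 786 to 825 in the same order, and 2 of them were called lower with CDDO-Im in Nrf2 null livers. Of the Kupffer markers 1 was called lower in Nrf2 null than in wild type livers under CDDO-Im. Of 5 endothelial markers 1 was called lower in that comparison, and 1 was called higher with CDDO-Im in wild type. Their part in the results was not tested. In bulk liver RNA, fewer cells of a type and less RNA per cell cannot be told apart.

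The likeness of the 5 profiles to each other and to other genes was read as Pearson correlation over the 12 arrays, which share their 4 groups, so it is a description. Mt1 and Mt2 correlated at 0.956 with each other and at 0.902 and 0.964 with Slc39a14. Slc30a10 correlated with these 3 at 0.665 to 0.716, and Slc30a1 correlated with the other 4 between -0.394 and -0.139. Among all genes, those most like Mt1 were Il1r1 (0.958), Mt2 (0.956), Scara5 (0.956) and Glud1 (0.955), and those most like Mt2 were Msantd4 (0.971), Slc39a14 (0.964), Il1r1 (0.963) and Mt1 (0.956). Slc39a14 was most like Stat3 (0.976), Apcs (0.976), Fn1 (0.974) and Saa4 (0.973). The nearest to Slc30a1 were F5 (0.967), Per3 (0.952), Acvr2a (0.928) and Fcho2 (0.924). For Slc30a10 they were Nme6 (0.959), Trmt6 (0.941), Bud31 (0.941) and Recql (0.938). Il1r1, the interleukin 1 receptor that ranks 1 for Mt1 and 3 for Mt2, read 9.91, 8.62 and 8.22 in Nrf2 null CDDO-Im, 10.18, 9.66 and 10.09 in Nrf2 null vehicle, 7.14, 7.95 and 8.03 in wild type CDDO-Im, and 9.77, 10.11 and 7.84 in wild type vehicle livers. Il1r1 was picked for its correlation with Mt1 and Mt2 over these arrays, and is also on the acute phase list. Its high value on Nrf2 null CDDO-Im replicate 1 and low value on wild type vehicle replicate 3 are therefore not a separate observation.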

How the data were processed

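RNA of 12 mouse liver samples, 3 arrays in each of 4 groups taken from the labels, was measured as log2 intensities, deposited by the authors with 1 value per probe set and array. The submitters' processing notes name RMA for these values, with its version not given in the sources used here. The deposited values were used unchanged (array medians 5.77 to 5.83), and the number of arrays limits the precision. Of 45101 probe sets, 64 were controls, 34945 named 1 gene, 932 several and 9160 none. Symbols were checked by Entrez Gene id against the mouse annotation GRCm38.p6 (34741 matched, 0 changed), which also gave the coordinates. The brightest probe set on average, among those naming a single gene, stood for each of 18193 genes, with no filter on low values.

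The 4 group means were estimated in 1 linear model of the 12 arrays, using limma 3.58.1 under R 4.3.3 (residual degrees of freedom 8, prior 3.8078), with Benjamini-Hochberg adjustment over all genes and two-sided tests. The fit was tested on simulated data. Named were the members, Nfe2l2, Nqo1, called genes of the lists or up to 4 with the smallest adjusted p, and the 4 genes of known name most correlated with each member. The members and lists were chosen with earlier results of these data known. Alternatives left out each array or both arrays with acinar transcripts, used only the arrays compared, every probe set, genes above the median level, array weights, centred medians, other probe sets or a replicate block. Replicate numbers did not pair the samples: correlations of same-numbered deviations ran from -0.30 to 0.278.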

Additional observations from a re-analysis of the deposited data

How the results depend on the processing

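The direction of the 5 members with CDDO-Im held under every alternative run, in both genotypes, but whether they passed the test depended on the arrays and weights used. With all arrays 0 members were called. In Nrf2 null livers 3 were called with array weights (Mt2, Slc30a1 and Slc30a10), and 1, Slc30a10, without both acinar arrays, with the compared arrays alone, among genes above the median level and with a replicate block (adjusted p = 0.0435), with 0 to 2 when 1 array was left out. Of all genes, 10.4% were called there with array weights, against 5.9% in the main fit. For the fits that called Slc30a10 alone no such share is given, so they show only that its call depends on the fit. In wild type 4 were called with array weights and 4 without both arrays with acinar transcripts, with 0 to 4 when 1 array was left out, the 4 coming without wild type vehicle replicate 3. Between genotypes 1 was called, Slc30a1 with vehicle, under array weights (-0.71, adjusted p = 0.00708), and 0 when any 1 array was left out. It is not known whether the replicate numbers pair the samples, and the block changed no other call of a member.

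Counts over all genes moved more. With CDDO-Im in Nrf2 null livers 1074 genes were called, against 1897 with array weights and 97 (without Nrf2 null CDDO-Im replicate 3) to 1615 (without wild type vehicle replicate 3) with 1 array left out. In wild type 332 were called, against 110 with the compared arrays alone, 549 over every probe set, 1293 without both acinar arrays, 2023 with array weights, 323 with the replicate block and 104 to 1385 with 1 array left out. For Nrf2 null against wild type under CDDO-Im 263 became 411 without both acinar arrays, 467 over every probe set and 151 to 464. With vehicle 71 became 18 with the compared arrays alone, 117 without both acinar arrays, 1477 with array weights and 19 to 219. For the interaction 25 became 39, 57 over every probe set, 89 with array weights and 15 to 46. Counts over every probe set are of probe sets, drawn from 45101 with the 64 controls left out, not from 18193 genes. They are not on one scale with the counts of genes and do not show a rise or fall.

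Small differences reversed, none of them called. With 1 array left out, Nrf2 null minus wild type under CDDO-Im ran from -0.0838 to 0.133 for Slc30a10 and from -0.081 to 0.21 for Slc30a1, and with vehicle from -0.14 to 0.45 for Slc30a10. The interaction ran from -0.17 to 0.38 for Mt1, -0.053 to 0.70 for Mt2, -0.10 to 0.61 for Slc39a14 and -0.46 to 0.13 for Slc30a10. The negative ends for Mt1, Mt2 and Slc39a14 came without Nrf2 null CDDO-Im replicate 1, and the positive ends without wild type vehicle replicate 3. Slc30a10 read 0.0094 with array weights under CDDO-Im and, without both acinar arrays, -0.22 with vehicle and 0.21 in the interaction. The interaction of Mt1 was -0.24 on its dimmer probe set. The cause was not tested. Signal over background was not used here.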
